A study of Mus musculus with 24 samples.

Results

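GABA and glycine are the inhibitory neurotransmitters of the retina, and the genes described here make, package, take up or break down these 2 amino acids. The set held 7 genes out of 56748 in the expression table, and all 7 were found by gene symbol: Gad1, Gad2, Slc32a1, Slc6a9, Slc6a11, Slc6a13 and Abat. The set was drawn up with earlier results of these mice known, and Slc6a13 was chosen by its measured levels, higher with doxycycline (dox) in wildtype neural retina and lower in PRDM13-OE. The differences of the 7 genes in the retinal comparisons that served for this choice, PRDM13-OE dox against wildtype dox and wildtype dox against untreated wildtype, are therefore given as descriptions without a test.

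Poly(A) RNA was sequenced from the neural retina and from the remaining eye cup, which holds the retinal pigment epithelium (RPE), choroid and sclera, of 12 C57BL/6J mice, giving 24 libraries in 8 groups of 3. PRDM13-OE mice were heterozygous for a knock-in at the Rosa26 locus, from which an HA-tagged human PRDM13 is made under TRE3G once dox activates the transactivator rtTA, which is not limited to 1 cell type since its EF-1α promoter is ubiquitous, and wildtype littermates lacked it. Each genotype was left untreated or drank water with 2 mg/mL dox and 10% sucrose for 72 hours from postnatal day 28, so that effects of dox and of sucrose cannot be told apart. The comparisons asked which genes differed between the genotypes under dox and which moved with dox in each genotype.

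Library totals ran from 15825059 to 24908314 counts. Mouse Prdm13 was detected in every neural retina at 44.9 to 60.3 CPM, the read counts scaled to library size with TMM factors, while the human transgene was not analysed here. Summed rod markers (7 genes, including Gnat1 and Sag) stood at 46080 to 52220 CPM in PRDM13-OE dox retinas and at 62310 to 68580 CPM in the other retinas. Wildtype dox retinas 1 and 2 stood apart by their lens crystallins (14 genes, summed), at 11310 and 4722 CPM against 3.55 to 894 CPM in the other 10. The eye cups also held retinal RNA, with a rod marker sum from 2673 to 42500 CPM.

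In the retina, GABA and glycine are used mainly by amacrine cells, with horizontal cells also holding GABA. The glutamate decarboxylases GAD67 (Gad1) and GAD65 (Gad2) make GABA from glutamate, and the vesicular transporter VGAT (Slc32a1) loads GABA or glycine into synaptic vesicles. Plasma membrane transporters of the SLC6 family take the transmitter up again. GlyT1 (Slc6a9) carries glycine, GAT3 (Slc6a11) carries GABA in Müller glia and amacrine cells, and GAT2 (Slc6a13) is a GABA transporter of barrier epithelia, known in the eye from the RPE and the ciliary epithelium. GABA transaminase (Abat) begins the breakdown of GABA in mitochondria.

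In the GRCm39 coordinates of the expression table, Slc6a13 (ENSMUSG00000030108) lay on chromosome 6 from 121277186 to 121314692 on the plus strand, 5.34 kb from the betaine and GABA transporter gene Slc6a12 on the same strand. Slc6a11 (ENSMUSG00000030307) lay on chromosome 6 from 114108202 to 114226913, which is 1.05 Mb from the Rosa26 gene that carries the insertion, and Slc6a13 lay 8.22 Mb from it. The Rosa26 transcript Gt(ROSA)26Sor rose by 0.66 on the log2 scale in PRDM13-OE dox against wildtype dox retinas (SE 0.12; edgeR adjusted p = 0.00302). Gad1 (ENSMUSG00000070880; 70383416 to 70432358), Gad2 (ENSMUSG00000026787; 22512217 to 22583886) and Slc32a1 (ENSMUSG00000037771; 158452687 to 158457668) shared chromosome 2, Slc6a9 lay on chromosome 4 (117691703 to 117732395) and Abat on chromosome 16 (8331293 to 8439432), all on the plus strand. All 7 overlapped the gene of the same identifier and strand in the GENCODE annotation of this build. Counts were totals per gene, so they did not separate isoforms.

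Slc6a13 had the largest differences of the set in the neural retina, and the decarboxylases of Gad1 and Gad2 make GABA. The promoter windows of these genes are shown so that their sequences can be compared. They are the 250 bases before an annotated start, 5′ to 3′ on the plus strand, from RefSeq on GRCm38.p6, a build other than that of the expression table. Capitals mark CANNTG, the E-box bound by basic helix-loop-helix factors, and TAATCC or its reverse complement GGATTA, the core read by OTX and CRX homeodomain factors, which did not overlap here. The positions were chr6:121300038-121300287 for Slc6a13, chr2:70561879-70562128 for Gad1 and chr2:22622077-22622326 for Gad2.
Slc6a13: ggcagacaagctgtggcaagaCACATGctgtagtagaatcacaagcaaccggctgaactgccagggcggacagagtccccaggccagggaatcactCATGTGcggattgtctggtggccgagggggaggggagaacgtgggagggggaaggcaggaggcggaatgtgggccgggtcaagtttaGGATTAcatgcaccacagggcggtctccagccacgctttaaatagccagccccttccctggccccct
Gad1: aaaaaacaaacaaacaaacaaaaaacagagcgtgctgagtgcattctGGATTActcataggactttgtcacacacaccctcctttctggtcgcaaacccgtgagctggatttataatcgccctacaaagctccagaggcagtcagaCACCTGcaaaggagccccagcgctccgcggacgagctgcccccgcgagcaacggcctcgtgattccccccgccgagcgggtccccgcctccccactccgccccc
Gad2: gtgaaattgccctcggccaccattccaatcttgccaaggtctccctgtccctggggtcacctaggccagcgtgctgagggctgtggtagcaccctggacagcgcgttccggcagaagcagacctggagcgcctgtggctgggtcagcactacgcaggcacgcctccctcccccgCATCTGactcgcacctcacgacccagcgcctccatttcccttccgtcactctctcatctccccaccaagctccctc
The Slc6a13 window held GGATTA with its first base at -67 from the start, and the Gad1 window held it at -203. Of all 32851 windows of this length in the RefSeq table, 6.25% held TAATCC on either strand and 66.2% held CANNTG. Windows were found for 6 of the 7 genes, with CANNTG in at least 1 window of each. Some genes had several windows, and Slc6a9 windows 2 and 3 and Slc6a13 window 3 held 0. A count per gene is therefore not comparable with the share per window. The form CAGCTG was in 13.0% of all windows and, among the 7 genes, in a second window of Slc6a13, at -129. These matches describe letters in the windows only.

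Compared per transcript length, Slc6a11 had the highest level of the set in untreated wildtype neural retina, at 73.1 ± 6.45 FPKM (SD, n = 3). Slc32a1 followed at 56.8 ± 2.64 FPKM and Gad1 at 49.1 ± 4.01 FPKM. Slc6a9 stood at 32.1 ± 2.07 FPKM, Abat at 21.7 ± 2.02 FPKM and Gad2 at 12.4 ± 0.655 FPKM. Slc6a13 was lowest, at 2.41 ± 0.515 FPKM. No neighbours in this order overlapped between their 3 retinas, and the order was the same, also without overlap, in untreated PRDM13-OE retinas. For scale, GlyT2 (Slc6a5), the neuronal glycine transporter outside the set, stood at 4.03 ± 0.374 FPKM.

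**Figure D1:**
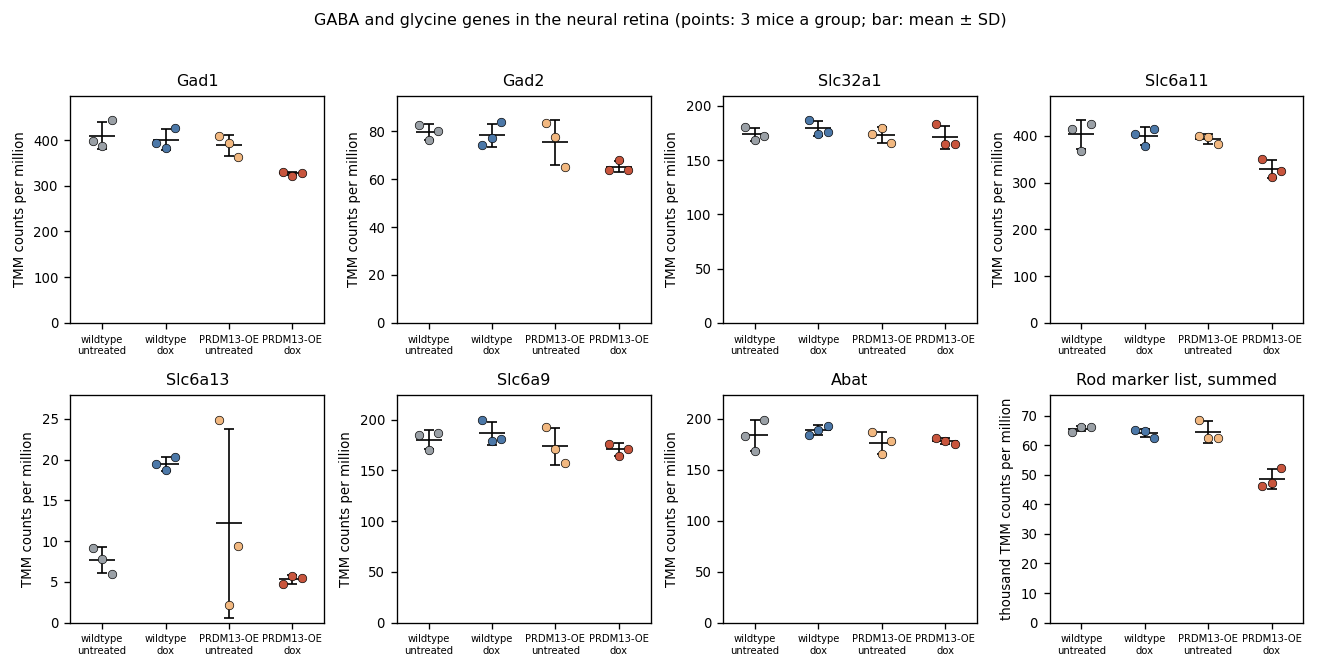
TMM CPM (vertical axes, from 0) of the 7 genes and of the summed rod markers in the 12 neural retinas, by genotype and treatment. Points are single mice, and horizontal lines with bars are the mean and SD of 3. Gad1 and Slc6a11 sat lower in the 3 PRDM13-OE dox retinas than in every other retina, Slc6a13 was even within the dox groups and spread from 2.22 to 24.9 CPM in untreated PRDM13-OE, and Slc32a1, Slc6a9 and Abat stayed in narrow ranges.

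Of the genes that make GABA, Gad1 was lower in PRDM13-OE dox retinas than in all other retinas, and Gad2 overlapped with untreated PRDM13-OE. Gad1 was at 329.9, 322 and 328 CPM in these 3 retinas and at 393, 382.5 and 426 CPM in wildtype dox. It was at 398, 388 and 444 CPM in untreated wildtype and at 408, 394 and 363 CPM in untreated PRDM13-OE. The 3 PRDM13-OE dox retinas thus lay below each of the other 9. Against wildtype dox, Gad1 differed by -0.30 on the log2 scale (SE 0.05), and against untreated PRDM13-OE it fell by 0.25 on the log2 scale (SE 0.06; edgeR adjusted p = 0.0192). In bulk tissue, fewer cells of a type and less RNA per cell cannot be told apart.

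Gad2 was at 63.9, 68.0 and 63.9 CPM in PRDM13-OE dox retinas and at 74.4, 77.0 and 83.8 CPM in wildtype dox. Untreated PRDM13-OE retinas had 83.4, 77.5 and 65.05 CPM, so the lowest of these overlapped the dox group. The log2-fold change was -0.27 (SE 0.06) against wildtype dox and -0.21 (SE 0.09; edgeR adjusted p = 0.242) against untreated PRDM13-OE. Without untreated PRDM13-OE retina 3, the latter was -0.31 (adjusted p = 0.0242).

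Slc6a11, the GABA uptake gene, showed the same order of groups as Gad1. It was at 350.3, 313 and 324.5 CPM in PRDM13-OE dox retinas, at 403, 379 and 416 CPM in wildtype dox and at 400.5, 397 and 382 CPM in untreated PRDM13-OE. The dox-treated PRDM13-OE retinas lay below both. Its log2-fold change was -0.29 (SE 0.06) against wildtype dox, and it fell by 0.26 on the log2 scale against untreated PRDM13-OE (SE 0.06; edgeR adjusted p = 0.0170).

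The vesicular transporter, the glycine transporter and the transaminase varied little. Slc32a1 stayed between 164 and 187 CPM in the 12 retinas, Slc6a9 between 157 and 199.8 CPM and Abat between 165 and 199 CPM. Against wildtype dox, PRDM13-OE dox retinas differed by -0.07 (SE 0.06), -0.13 (SE 0.06) and -0.09 (SE 0.05) on the log2 scale. Against untreated PRDM13-OE, none of the 3 passed the test, with values of -0.02, -0.03 and 0.01 (edgeR adjusted p = 0.927, 0.919 and 0.976).

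Over the set, all 7 genes entered each fit, so none was lost to the filter on low counts. Between the genotypes under dox, 4 of 7 were lower at an adjusted p under 0.05, where 7.51% of 20560 genes were lower and 5.01% higher, and Slc6a13 alone also passed the log2-fold change cutoff of 1, as 1.50% of genes did in that direction. In 6 of the 7, all 3 PRDM13-OE dox retinas lay below all 3 wildtype dox retinas, as for 15.4% of genes. The choice of the set used this comparison, so nothing is read from these counts.

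The comparison of dox-treated with untreated PRDM13-OE retinas shares its dox-treated libraries with the former. There, 2 of 7 genes, Gad1 and Slc6a11, fell at an adjusted p under 0.05, against 2.96% of 20603 genes, and 0 of 7 passed with the cutoff of 1, against 0.621%, by edgeR as by DESeq2, while 4 of 7, and 3216 of the 20603 genes, had an unadjusted p under 0.05. For the same 2 genes, the 3 dox-treated retinas lay below the 3 untreated ones, as for 9.95% of genes. The median log2-fold change over the set was -0.21, and over all genes it was 0.004.

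Whether Gad1 and Slc6a11 passed at an adjusted p under 0.05 depended on single libraries and on scaling. For each gene the log2-fold change stayed within its SE of the main value in 15 alternative settings and moved further in 1. With library size in place of TMM factors the log2-fold changes were -0.19 (adjusted p = 0.0533) for Gad1 and -0.20 (adjusted p = 0.0591) for Slc6a11. Leaving out any PRDM13-OE dox retina gave Gad1 an adjusted p of 0.0785 to 0.122, and leaving out untreated retina 1 gave 0.0518. Slc6a11 had 0.137 without PRDM13-OE dox retina 2 and 0.0938 without retina 3. Several marker sums were lower in the same 3 PRDM13-OE dox retinas than in all other 9, those of rods (above), of endothelial cells (4 genes), at 127 to 150.3 CPM against 232 to 303.5 CPM, and of red blood cells (5 genes), at 0.709 to 1.18 CPM with 1 or 2 of the genes at 0, against 21.6 to 77.8 CPM. The horizontal cell sum (5 genes) was 273 to 285 CPM in PRDM13-OE dox, below wildtype dox (317 to 359.8 CPM) and untreated PRDM13-OE (306 to 343 CPM) and overlapping only untreated wildtype (282 to 353.5 CPM). The amacrine cell sum (9 genes) was 611 to 639.7 CPM, below wildtype dox (658 to 691.6 CPM) and overlapping untreated PRDM13-OE (626 to 683.5 CPM) and untreated wildtype (618 to 691 CPM). The Müller glia sum was not lower, at 5950 to 6222 CPM in PRDM13-OE dox and 5947 to 6107 CPM in wildtype dox. It was 5337 to 6123 CPM in untreated PRDM13-OE and 5113 to 5680 CPM in untreated wildtype. These sums cover several cell types. Their part in the result was not tested.

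**Figure D2:**
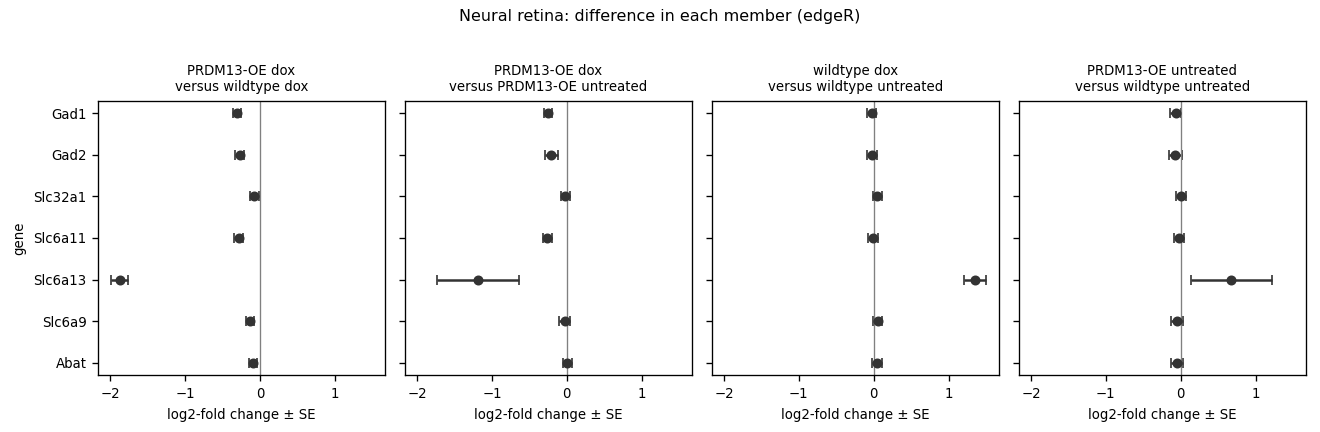
Log2-fold change (horizontal axes) with its SE for each of the 7 genes in 4 comparisons of neural retinas, fitted with edgeR over 3 mice a group. Slc6a13 stood at -1.87 and 1.35 in the comparisons that served to choose it and had wide bars in both comparisons with untreated PRDM13-OE, while the other 6 genes lay between -0.30 and 0.05 in all 4.

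In the neural retina, Slc6a13 had the largest differences of the set and the lowest level. Its counts ran from 38 to 406 per retina. It was at 9.21, 7.815 and 5.96 CPM in untreated wildtype, at 19.45, 18.7 and 20.3 CPM in wildtype dox and at 4.725, 5.77 and 5.48 CPM in PRDM13-OE dox. The wildtype dox retinas lay above both of these groups without overlap. The log2-fold change was 1.35 (SE 0.14) for dox in wildtype, not called without untreated wildtype retina 2 or 3 or wildtype dox retina 1, and -1.87 (SE 0.11) for PRDM13-OE dox against wildtype dox. It was the single call among 20631 genes for dox in wildtype, 0.00485% of genes, and this result was known when the set was drawn up.

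In untreated PRDM13-OE retinas Slc6a13 was at 24.9, 2.22 and 9.40 CPM, a spread wider than that of any other group. The highest and the lowest of the 12 retinas were both in this group. Dox in PRDM13-OE therefore gave -1.19 (SE 0.55), which was not called. The value was -0.12 without untreated retina 1 and -1.69 without untreated retina 2. The comparison shares its dox-treated libraries with one that served to choose Slc6a13, so these values are descriptions. Untreated PRDM13-OE against untreated wildtype gave 0.67 (SE 0.54; adjusted p = 0.995) for Slc6a13 and no call among the 7 genes or among all 20668 genes tested (0%), with an unadjusted p under 0.05 for 0 of the 7 and for 778 genes. DESeq2 also called 0 of the 7. The sign of this difference turned to -0.40 without PRDM13-OE retina 1.

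Among markers of tissue next to the neural retina, the ciliary epithelium sum followed Slc6a13 in part. The ciliary epithelium list (5 genes, including Optc, Zic1 and Col18a1) summed to 434, 442 and 395 CPM in wildtype dox, to 341, 253 and 299.8 CPM in untreated wildtype and to 199, 289 and 304.5 CPM in PRDM13-OE dox. Wildtype dox retinas were thus highest in this list as well. In untreated wildtype retinas 1, 2 and 3 its order was not that of Slc6a13, at 9.21, 7.815 and 5.96 CPM. Fibroblast and Müller glia sums in wildtype dox (42.6 to 68.0 and 5947 to 6107 CPM) were above untreated wildtype too. The latter had 29.7 to 41.3 and 5113 to 5680 CPM. In PRDM13-OE dox they were 31.1 to 49.9 and 5950 to 6222 CPM, overlapping wildtype dox. In untreated PRDM13-OE retinas 1, 2 and 3 the ciliary epithelium list summed to 379, 212 and 319 CPM, the same order as Slc6a13 there.

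The RPE list (6 genes, including Rpe65 and Best1) summed to 339, 57.4 and 90.55 CPM in these 3 untreated PRDM13-OE retinas. Retina 1 held both the highest RPE sum and the highest Slc6a13 of the 12. In wildtype dox the RPE sum was 129.8 to 169 CPM, within the range of 50.9 to 166.5 CPM in untreated wildtype except for retina 3, and in PRDM13-OE dox it was 90.5 to 114 CPM. Relative to the RPE sum, Slc6a13 was 12.0% to 15.0% in wildtype dox, 5.21% to 11.7% in untreated wildtype, 3.86% to 10.4% in untreated PRDM13-OE and 4.19% to 6.37% in PRDM13-OE dox. All markers of both lists were detected in each retina.

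In a single fit over the 12 retinas, where all groups share 1 estimate of the spread, Slc6a13 differed by -1.87 (SE 0.47) between the genotypes under dox and by 1.35 (SE 0.45) with dox in wildtype. Adding the log2 ciliary epithelium sum to this fit as a covariate, an alternative chosen after seeing the data, gave -0.34 (SE 0.48) and 0.22 (SE 0.41). That sum includes Col18a1, which ranked 7 among 14852 genes in likeness to Slc6a13 over these same retinas. Smaller values were therefore likely beforehand, and nothing is read from them. Adding the RPE sum instead gave -1.49 (SE 0.28) and 1.03 (SE 0.27), and adding the lens crystallin sum gave -1.16 (SE 0.70) and 1.15 (SE 0.45). Without the 2 lens-rich wildtype dox retinas the values were -1.94 (SE 0.63) and 1.42 (SE 0.62), with a single wildtype dox library that is assumed to vary like the other groups. The part of these tissues in the result was not tested beyond these values.

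**Figure D3:**
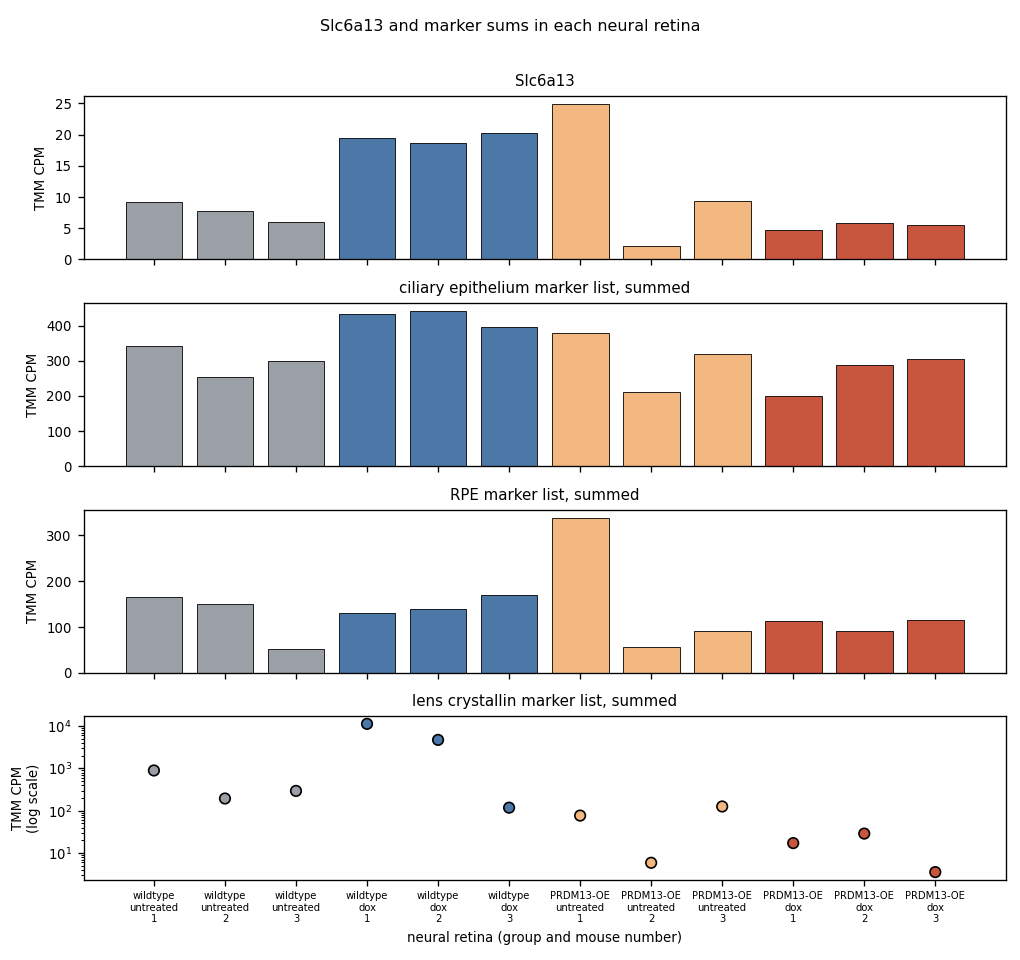
Slc6a13 and the summed ciliary epithelium, RPE and lens crystallin markers in each of the 12 neural retinas, in TMM CPM (bars from 0; the lens sums are points on a log axis). Wildtype dox retinas were highest in the ciliary epithelium sum (395 to 442 CPM) and had 18.7 to 20.3 CPM of Slc6a13, and untreated PRDM13-OE retina 1 had the highest RPE sum (339 CPM) and 24.9 CPM of Slc6a13.

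The test of whether dox acted differently in the 2 genotypes (genotype-by-dox interaction) called 1 of 7 genes, Slc6a13, at -2.53 (SE 0.65), against 0.515% of 22538 genes called in that direction. Since Slc6a13 was selected on this pattern, the value is a description. It ran from -3.03 to -1.47 when single retinas were left out, and it remained called only without untreated PRDM13-OE retina 2, not without any of the other 11. Gad1 at -0.22 (SE 0.09; edgeR adjusted p = 0.247), Slc6a11 at -0.25 (SE 0.09; adjusted p = 0.177) and Gad2 at -0.19 (SE 0.11; adjusted p = 0.501) did not pass. For Slc32a1, Slc6a9 and Abat the interaction lay between -0.08 and -0.03.

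The genes whose pattern over the 12 retinas was most like that of Slc6a13, by root mean square difference of centred log2 CPM among 14852 genes, were Sned1 (0.387), Ptgds (0.388), Bace2 (0.401), Bmp2 (0.416) and Otx1 (0.423). The median over all genes was 0.952. The other 6 genes of the set stood at 0.888 to 0.934, close to the 0.941 that a gene of constant level would have. Sned1, for example, was at 28.4 to 34.2 CPM in wildtype dox and 8.56 to 18.0 CPM in PRDM13-OE dox, and at 37.5, 8.11 and 25.9 CPM in untreated PRDM13-OE. The values of all genes in a retina come from the same library and share its depth.

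Of 58 other genes of GABA and glycine handling and reception, 56 were tested in PRDM13-OE dox against wildtype dox retinas. Of these, 11 fell and 2 rose at an adjusted p under 0.05, and 2 of the 11 fell past the cutoff of 1. Over all genes these shares were 7.51%, 5.01% and 1.50%. The lists were drawn up with earlier results of these data known, so nothing is read from these counts. The median over the 56 was -0.14, beside 0.006 over all genes. Among the receptor subunits, Gabrb2 (-0.60), Gabrr1 (-0.39) and Glra1 (-0.62) fell, of 17 GABA-A and 5 glycine receptor genes tested, and 0 of 6 GABA-B receptor and auxiliary genes passed.

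The 2 genes past the cutoff handle the precursor and the breakdown. Slc38a3, a glutamine transporter of glia, was at 254, 255 and 250.4 CPM in PRDM13-OE dox retinas and at 544, 535 and 579.6 CPM in wildtype dox, with 561.7 to 663 CPM in the untreated retinas of both genotypes. It fell by 1.13 on the log2 scale (SE 0.05; edgeR adjusted p = 8.4e-08) against wildtype dox and by 1.30 (SE 0.05; adjusted p = 2.3e-08) against untreated PRDM13-OE. No PRDM13-OE dox retina came near the others.

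Gldc, the decarboxylase of the glycine cleavage system, was at 12.6, 20.55 and 23.1 CPM in PRDM13-OE dox and at 62.3, 60.1 and 60.9 CPM in wildtype dox. Untreated retinas had 42.2 to 64.35 CPM, all above the PRDM13-OE dox group. It fell by 1.71 on the log2 scale (SE 0.15; edgeR adjusted p = 2.5e-05) against wildtype dox and by 1.47 (SE 0.19; adjusted p = 0.000398) against untreated PRDM13-OE, the latter not called with robust fitting (adjusted p = 0.0862) and called in the other 16 of 17 alternatives. Both Slc38a3 and Gldc were also called in the interaction, at -1.12 (SE 0.09; adjusted p = 6.5e-07) and -1.83 (SE 0.22; adjusted p = 9.4e-05).

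Of the uptake and breakdown genes beside the set, Slc6a5, Slc6a12 and Aldh5a1, which continues GABA breakdown after Abat, did not pass against wildtype dox or against untreated PRDM13-OE, at -0.19 to -0.06 on the log2 scale.

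The eye cup differed from the neural retina in which of the 7 genes was highest. In untreated wildtype mice Slc6a13 was at 378, 489.9 and 555 CPM in the eye cup, above every retina, with a log2 difference of 6.18 (SE 0.26; edgeR adjusted p = 3.8e-06). Per length it stood at 175 ± 31.3 FPKM (SD, n = 3), the highest of the set there, followed by Slc6a9 at 29.3 ± 1.82 and Abat at 24.1 ± 2.86 FPKM, and then by Slc6a11, Slc32a1, Gad1 and Gad2, whose mice overlapped between neighbours. Abat (0.16, adjusted p = 0.362) and Slc6a9 (-0.13, adjusted p = 0.362) missed the threshold between the tissues.

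Of the other genes, 4 were lower in the eye cup, Gad1 by -3.30 (SE 0.78), Gad2 by -3.43 (SE 0.91), Slc32a1 by -3.07 (SE 0.67) and Slc6a11 by -2.77 (SE 0.65) on the log2 scale, with edgeR adjusted p = 0.00789, 0.0131, 0.00546 and 0.00753. Gad2 missed the threshold without wildtype untreated eye cup 3 (adjusted p = 0.0598). In all, 1 of 7 was higher and 4 of 7 lower in the eye cup, where 25.9% of 21979 genes were called higher and 19.3% lower. The tissues were dissected apart and each fit scales them together, so a log2 difference is relative to the other genes.

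**Figure D4:**
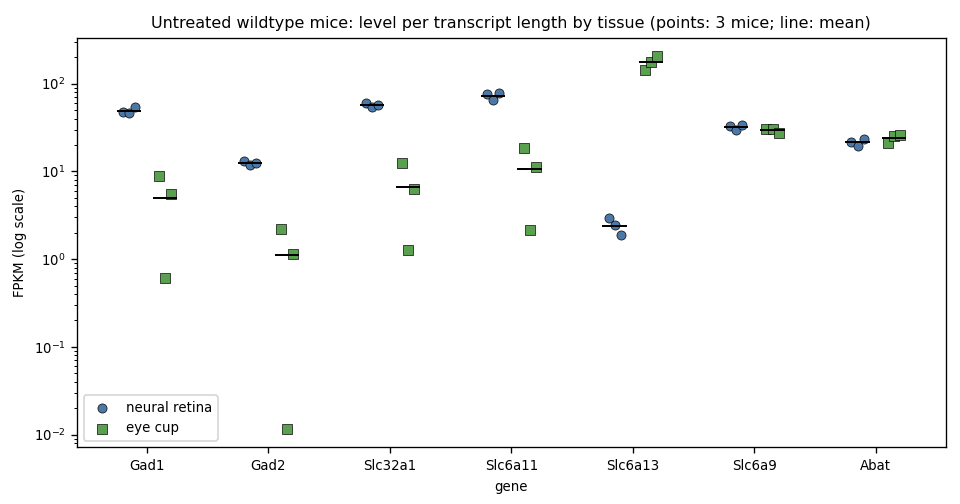
FPKM, a level per transcript length (log axis), of the 7 genes in untreated wildtype neural retinas (circles) and eye cups (squares), with 1 point a mouse and a line at the mean of 3. Slc6a13 went from the lowest gene in the retina (2.41 FPKM) to the highest in the eye cup (175 FPKM), and Slc6a9 and Abat stood at similar levels in both.

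Among 57 other pathway genes tested between the tissues, 10 were called higher and 29 lower in the eye cup, beside 25.9% higher and 19.3% lower over all genes, with a median of -1.05 beside 0.055 over all genes. Other amino acid carriers were among the higher ones, with Slc7a10, an exchanger that carries glycine, at 6.97 (SE 0.50; edgeR adjusted p = 2.7e-05) and the proline and glycine carrier Slc6a20a at 6.38 (SE 0.60; adjusted p = 9.5e-05). The glycine enzymes Shmt1 at 2.82 and Gldc at 2.23 were higher too. All 5 glycine receptor genes were called lower, with Glra1 at -3.95, Glra3 at -3.87, Glra4 at -3.77 and Glra2 at -3.49.

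Of 18 GABA-A receptor genes, 10 were lower, led by Gabrb2 at -4.22 and including Gabrr3 at -3.52, and 2 were higher. One of the latter, Gabrp, had 0 counts in the 3 retinas and a mean of 5.59 CPM in the eye cups, at least 37.0-fold higher when 3 counts in each retina are taken as the limit. Gabbr2 (-3.33), Kctd16 (-3.13) and Kctd8 (-2.72) were the lower GABA-B genes with the largest differences, Kctd12b (2.40) was higher, and of the chloride transporters Slc12a5 was lower (-2.91) and Slc12a2 higher (2.15). Slc6a5 (-3.95) was lower.

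Within the eye cup, Gad1, Gad2, Slc32a1 and Slc6a11 varied widely between mice of a group, as did the rod marker sum. Gad1 was at 61.1, 4.42 and 39.0 CPM in untreated wildtype, at 192, 177 and 113.5 CPM in wildtype dox, at 34.6, 106 and 0.312 CPM in untreated PRDM13-OE and at 43.0, 17.3 and 198 CPM in PRDM13-OE dox. The rod marker sums of the same eye cups were 21350, 2673 and 10740 CPM, then 42500, 32350 and 21700 CPM, then 11410, 19040 and 6342 CPM, and then 10360, 4684 and 32670 CPM. Both were highest, on average, in wildtype dox, and within PRDM13-OE dox both were highest in mouse 3.

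The extremes were not the same libraries. The rod sum was lowest in untreated wildtype eye cup 2, as was Slc6a11, while Gad1, Gad2 and Slc32a1 were lowest in untreated PRDM13-OE eye cup 3. The highest Slc32a1 and Slc6a11 were in wildtype dox eye cup 1, as was the highest rod sum, but Gad2 was highest in wildtype dox eye cup 2 and Gad1 in PRDM13-OE dox eye cup 3. Gad2 and Slc32a1 had 0 counts in untreated PRDM13-OE eye cup 3, which allows up to 0.188 CPM, and Gad1 had 5 counts there. The highest eye cup was at 35.1 CPM for Gad2, 110.3 CPM for Slc32a1 and 245 CPM for Slc6a11, below the lowest retina in each case. Per 1000 CPM of rod markers, Slc6a11 was at 3.92 to 7.19 CPM in wildtype eye cups and at 5.58 to 6.65 CPM in wildtype retinas, and Gad1 at 1.65 to 5.47 and 5.87 to 6.81 CPM. In PRDM13-OE eye cups the spread was wider, at 3.55 to 9.43 CPM for Slc6a11, 0.0493 to 6.07 CPM for Gad1 and up to 1.09 CPM for Gad2 and 3.21 CPM for Slc32a1, both from 0, so these genes did not keep 1 ratio to the rod sum.

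Slc6a9 and Abat varied less, at 75.9 to 185 CPM and 101 to 219.9 CPM over the 12 eye cups, per 1000 CPM of rod markers up to 55.6 and 71.1 CPM in wildtype eye cups. Slc6a13 was 1.33% to 2.00% of the RPE marker sum in all 12 eye cups, while its own level ran from 105 to 684 CPM.

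**Figure D5:**
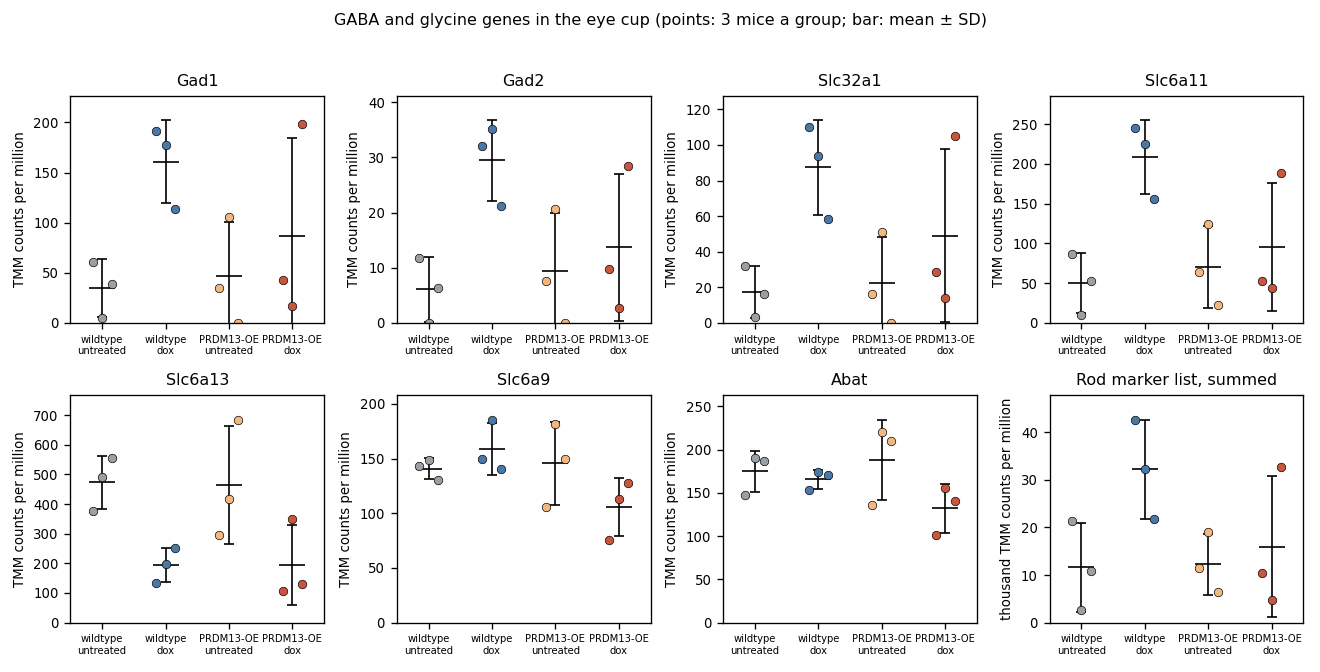
TMM CPM (vertical axes, from 0) of the 7 genes and of the summed rod markers in the 12 eye cups, by genotype and treatment. Points are single mice and horizontal lines with bars the mean and SD of 3, with bars cut at 0. Gad1, Gad2, Slc32a1, Slc6a11 and the rod sum spread widely within groups, and Slc6a13 was lower in wildtype dox (134 to 251 CPM) than in untreated wildtype (378 to 555 CPM).

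Dox in wildtype eye cups called 0 of 7 genes and 0% of 21799 genes by edgeR, while 4 of the 7 and 6517 of all genes had an unadjusted p under 0.05. DESeq2 called 3 of the 7, Slc32a1, Slc6a11 and Slc6a13. The share of all genes that DESeq2 called is not given here, so nothing is read from this count. Gad1 (2.14, adjusted p = 0.119), Gad2 (2.20, adjusted p = 0.171), Slc32a1 (2.27, adjusted p = 0.0888) and Slc6a11 (2.01, adjusted p = 0.0978) were above all untreated eye cups in each dox mouse, as were 21.4% of genes. In a fit over all 12 eye cups these were 2.21, 2.27, 2.33 and 2.07, and with the rod sum as a covariate in that fit 0.09, 0.23, 0.42 and 0.72.

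Slc6a13 was at 134, 197 and 251 CPM in wildtype dox eye cups, below the 378, 489.9 and 555 CPM of the untreated ones, as were 16.3% of genes. The change was -1.31 on the log2 scale (SE 0.27; edgeR adjusted p = 0.0673), the opposite sign to that in the retina. With DESeq2 its adjusted p was 0.000485, over all alternatives it ran from 0.000485 to 0.884, and in a fit over all 12 eye cups the value was -1.29 (adjusted p = 0.2445), and -0.66 (adjusted p = 0.884) with the rod sum as a covariate in that fit. The RPE marker sums were 26920, 36220 and 41510 CPM in untreated wildtype and 8909, 9845 and 17870 CPM in wildtype dox. Their part in the result was not tested.

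Between the genotypes under dox, 0 of 7 genes were called in the eye cup by edgeR or DESeq2, against 0.0184% of 21758 genes, and 1 of 7 and 1792 of all genes had an unadjusted p under 0.05. Slc6a9 was at 75.9, 113 and 127.5 CPM in PRDM13-OE dox and at 149, 185 and 141 CPM in wildtype dox, lower in each mouse as for 8.46% of genes, at -0.54 on the log2 scale (SE 0.22; edgeR adjusted p = 0.597). Slc6a13 was at 105, 351 and 129.7 CPM against 134, 197 and 251 CPM, a difference of 0.04 (SE 0.47; adjusted p = 0.981). Without PRDM13-OE dox eye cup 3, which had the highest rod sum of its group, 4 genes were called: Gad1 (-2.32, adjusted p = 0.0261), Gad2 (-2.11, adjusted p = 0.0469), Slc32a1 (-1.95, adjusted p = 0.0301) and Slc6a11 (-2.02, adjusted p = 0.0136). In a fit over all 12 eye cups the values were -0.91, -1.11, -0.84 and -1.13, and with the rod sum as a covariate in that fit 0.52, 0.80, 0.55 and -0.04, with none called in either. The share of all genes called without PRDM13-OE dox eye cup 3 is not given here, so nothing is read from the count of 4.

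Dox in PRDM13-OE eye cups called 0 of 7, against 0.0139% of 21604 genes, with Slc6a13 at -1.25 (SE 0.55; edgeR adjusted p = 0.975). Untreated PRDM13-OE against untreated wildtype eye cups and the genotype-by-dox interaction called 0 of 7 and 0% of genes each, while 404 and 1526 genes had an unadjusted p under 0.05. In these 3 comparisons 0 of 7 had an unadjusted p under 0.05, and DESeq2 called 0 of 7. For Slc6a13 these were -0.04 (SE 0.33) and 0.07 (SE 0.65). The SE of Gad1, Gad2 and Slc32a1 in these 3 comparisons was 1.46 to 1.93 on the log2 scale.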

How the data were processed

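The 24 libraries came from the neural retina and eye cup of 12 mice, 3 per genotype and treatment. Per the labels and the study's methods, a service laboratory (Novogene) made poly(A) libraries and mapped them to GRCm39/mm39, and the submitters' processing notes name CASAVA and HISAT2. The counting tool, the annotation release and whether the libraries kept strand were not given in the sources used here. The authors deposited raw read counts per gene and FPKM, normalised by gene length and mapped fragments, for each library, with their own comparisons (mean normalised counts, log2-fold changes, p-values), which were not used. The deposited gene_length column was not used in a test.

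Counts were fitted with edgeR 4.0.16 (quasi-likelihood test, TMM factors) on the 6 libraries of each comparison, or 12 for an interaction, keeping genes with at least 10 counts in sum. Benjamini-Hochberg adjusted p-values cover all genes tested, and a gene is called where its log2-fold change lies past 1 in size with an adjusted p under 0.05, as in the study. Levels are TMM CPM over the 12 libraries of a tissue, and FPKM serve for comparisons between genes. Groups of 3 cannot give an exact permutation p under 0.10, so single-gene tests rest on the fit. DESeq2 1.42.0 and other settings served as alternatives. The fits were tested on simulated data. The 7 genes and all lists were chosen with earlier results of these data known. Named genes were the 7, Slc6a5, Slc6a12 and Aldh5a1, at most 4 called genes of each list in a comparison, chosen by size, and the 5 genes most like Slc6a13; other genes named were chosen after their values were seen. Some genes of the lists are not reported here.

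The mouse number ties the retina and the eye cup of 1 animal, and the deviations of same-numbered untreated wildtype libraries from their group means correlated at 0.10 to 0.13. Between genotypes or treatments the number is shared by different mice. No pair of replicates differed by less than sampling noise. The p-values and SEs of the fits take in the spread between mice, and limits drawn from 0 counts cover counting error only.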

Additional observations from a re-analysis of the deposited data

Results flagged for a closer look

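Slc6a13 differed in its response to dox between the genotypes in the neural retina, with a genotype-by-dox interaction of -2.53 on the log2 scale (SE 0.65). Slc6a13 was selected on this pattern, so the value is a description without a test. The call was lost in 18 alternative settings and kept in 5. The ciliary epithelium marker sum was also highest in wildtype dox retinas, and with that sum as a covariate the interaction was -0.67. The sum includes Col18a1, whose pattern over the retinas was close to that of Slc6a13, so nothing is read from this value. The part of that tissue was not tested.

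Slc38a3 and Gldc also responded differently to dox in the genotypes, at -1.12 (edgeR adjusted p = 6.5e-07) and -1.83 (adjusted p = 9.4e-05) in the retina, and both were called in 23 of 23 alternative settings.

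With dox in wildtype mice, the differences in Slc6a13 had opposite signs in the tissues, at 1.35 in the retina and -1.31 in the eye cup, with no overlap between the groups in either. The retinal value is one on which the set was chosen, and the eye cup value did not pass (edgeR adjusted p = 0.0673, and 0.000485 to 0.884 over the alternatives). The RPE marker sum of the eye cups was 8909 to 17870 CPM with dox and 26920 to 41510 CPM without. The difference between the tissues was not tested.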

How the results depend on the processing

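Slc6a13 was chosen on its levels in PRDM13-OE dox against wildtype dox retinas and with dox in wildtype retinas. Call counts for these comparisons and for the retinal interaction are therefore descriptions. Of the 7 genes, 1 was called in PRDM13-OE dox against wildtype dox retinas. This count was 4 with no fold cutoff, and 0 with the lens crystallin covariate, with the ciliary epithelium covariate or without the 2 lens-rich wildtype dox retinas. For dox in wildtype retinas the count of 1 was 0 with all 12 retinas in 1 fit, with the lens, RPE or ciliary epithelium covariate or without the lens-rich retinas, and 0 to 1 when single retinas were left out. For dox in PRDM13-OE retinas the count of 0 was 1 with no filter on low counts, 2 with no fold cutoff and 0 to 1 when single retinas were left out. The retinal interaction count of 1 was 0 with DESeq2, edgeR's filterByExpr, robust fitting, the lens or ciliary epithelium covariate or without the lens-rich retinas, and 0 to 1 when single retinas were left out. In the eye cup, PRDM13-OE dox against wildtype dox had 0 calls, and 0 to 4 when single eye cups were left out. Dox in wildtype eye cups had 0 calls, 3 with DESeq2, 1 with library size in place of TMM, 2 with no filter, and 0 to 3 when single eye cups were left out. Shares of all genes called under these alternatives are not given here, so the counts are not set against a general rate. The causes were not tested. The RPE and ciliary epithelium covariates were chosen after seeing the data.

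With the mouse number as a replicate block, the retinal interaction count was 0, with Slc6a13 at -2.38. Between genotypes and treatments the number is shared by different mice, whose deviations correlated at -0.552 to 0.634. Blocking by mouse in the tissue comparison, where the number is 1 animal, changed no call. No called value reversed its sign.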
